A study of Mus musculus with 22 samples.

Results

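Of the 136207 hnRNP A1 footprints retained in the spinal cords of 10 mice, 77137 (56.6%) had their midpoint in the coding sequence (CDS) of a protein-coding gene and are described here. A footprint is a stretch of the genome whose RNA was recovered with hnRNP A1 after UV crosslinking, assembled from the reads and left over after the authors removed what was also present in the background libraries. Membership was decided by position alone, from the GRCm38 coordinates of the footprint and the GENCODE coding intervals, and used no measured level. Each library came from 1 female wild-type C57Bl/6 mouse. The 3 naïve mice were healthy and age-matched, and the 7 mice with experimental autoimmune encephalomyelitis (EAE) had been immunized with the MOG(35-55) peptide in complete Freund's adjuvant together with pertussis toxin, at 12 weeks by the sample labels and at 8 weeks by the design text, and were taken 15 days after disease onset. The mild EAE group held mice 3, 4 and 7, with clinical scores of 1.5, 1.5 and 1, and the severe EAE group held mice 1, 2, 5 and 6, with scores of 2.5, 3, 2.5 and 3. Values per mouse are listed in ascending order of these mouse numbers. All groups were immunoprecipitated with the same anti-hnRNP A1 antibody, and the inputs and the pooled control IgG libraries were not analysed here.

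EAE is a model of multiple sclerosis in which an immune response against myelin injures the spinal cord. hnRNP A1 is an abundant RNA binding protein that shuttles between nucleus and cytoplasm, represses the use of exons through exonic and intronic silencers, and stays with many mRNAs during export. Its preferred short motif contains UAG, and an AGGU motif has also been linked to it. Because UAG is a stop codon, the triplet can occur inside a coding sequence only out of frame.

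A coding stretch of at least 30 nt was shared by 9 mice in 1 gene and by 8 mice in 7 genes. That of the first and the 5 longest of the others are shown because they are where the individual libraries met at single-nucleotide resolution. All come from the GRCm38.p6 reference and are written 5′ to 3′ on the strand of the gene, in lower case, with UAG (written TAG) and AGGU (written AGGT) in capitals.
Lrp1, shared by 9 mice: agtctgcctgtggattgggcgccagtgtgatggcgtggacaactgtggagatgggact
Ptprs, shared by 8 mice: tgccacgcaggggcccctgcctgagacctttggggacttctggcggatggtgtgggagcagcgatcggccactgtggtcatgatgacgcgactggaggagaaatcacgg
Hnrnpk, shared by 8 mice: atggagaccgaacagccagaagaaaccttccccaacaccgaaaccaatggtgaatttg
Fkbp8, shared by 8 mice: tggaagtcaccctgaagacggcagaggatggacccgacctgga
Dst, shared by 8 mice: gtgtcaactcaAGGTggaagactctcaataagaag
Naca, shared by 8 mice: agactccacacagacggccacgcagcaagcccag
None of the 6 stretches held a UAG, and 1, in Dst, held an AGGU.

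The Lrp1 stretch lay at chr10:127546410-127546467 on the minus strand, in coding exon 72 of 89, and severe EAE mouse 6 was the mouse without it. Lrp1 encodes a large endocytic receptor of the lipoprotein receptor family. The Ptprs stretch, at chr17:56418910-56419018 (minus strand, coding exon 23 of 32), belongs to a receptor tyrosine phosphatase of growing axons. The Hnrnpk stretch, at chr13:58400333-58400390 (minus strand), began with the start codon of the gene for hnRNP K, another RNA binding protein of the same broad family, and ran to the end of coding exon 1 of 15. The Fkbp8 stretch lay at chr8:70531560-70531602 (plus strand, coding exon 4 of 8), in the gene of a mitochondrial immunophilin. The Dst stretch, at chr1:34242746-34242780 (plus strand, coding exon 58 of 98 in the transcript used there), belongs to dystonin, a giant linker of cytoskeletal filaments. The Naca stretch, at chr10:128046220-128046253 (plus strand, coding exon 2 of 7), belongs to a subunit of the nascent polypeptide-associated complex. In 5 of the 6 genes the footprints of 8 mice stopped on the same nucleotide, the last base of the annotated exon, whereas in Fkbp8 only 1 mouse reached that base.

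Those exon ends were followed into the next exon. In the sequences below the last bases of the exon are in lower case and the first bases of the next coding exon of the spliced mRNA are in capitals; the intron between them is left out.
Lrp1, coding exons 72 and 73: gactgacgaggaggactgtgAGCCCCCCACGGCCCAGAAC
Ptprs, coding exons 23 and 24: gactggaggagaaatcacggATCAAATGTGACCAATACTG
Hnrnpk, coding exons 1 and 2: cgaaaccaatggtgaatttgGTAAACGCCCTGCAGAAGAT
Dst, coding exons 58 and 59: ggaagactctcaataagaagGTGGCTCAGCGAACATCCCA
Naca, coding exons 2 and 3: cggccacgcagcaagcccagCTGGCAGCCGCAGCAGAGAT
In Naca all 8 mice with a footprint ending at the exon end also had a footprint starting on the first base of the next exon. In Lrp1 and in Ptprs the same was true of 6 of 8 mice, and in Hnrnpk of 5 of 8. In Dst it was true of 5 of 8 mice, and the 3 without it were the 3 naïve mice, an observation picked out after the values were seen. These footprints thus covered stretches that are contiguous in the spliced mRNA and separated by an intron in the genome.

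The number of coding footprints differed widely between mice, and the groups overlapped. Naïve mice 1, 2 and 3 had 7917, 7022 and 9643 coding footprints. Mild EAE mice 3, 4 and 7 had 10622, 5625 and 15661. Severe EAE mice 1, 2, 5 and 6 had 1352, 56, 18982 and 257, so the severe group held both the highest number of all mice and the 3 lowest. Read counts behind single footprints are not given in the deposited lists, so the depth behind each footprint is unknown. The paper lists mapped reads per library and calls sequencing depth similar among samples. In its list, severe EAE mouse 5 had the most mapped reads of the immunoprecipitations. Severe EAE mouse 2 had the most of the inputs, whose sites were subtracted. The part of library depth in these counts was not tested. Values of severe EAE mice 2 and 6 rest on few footprints. As bulk tissue was used, fewer cells of a type and less bound RNA per cell cannot be told apart.

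As a share of all footprints of a mouse, coding footprints made up 46.2%, 40.2% and 55.1% in the naïve group. In mild EAE mice 3, 4 and 7 they made up 73.1%, 57.7% and 64.1%, each above every naïve mouse. In severe EAE mice 1, 2, 5 and 6 they made up 50.6%, 26.8%, 59.6% and 38.2%, which overlapped both other groups. The mean was 47.2% ± 7.49 (SD, n = 3) in naïve, 65.0% ± 7.73 (SD, n = 3) in mild EAE and 43.8% ± 14.3 (SD, n = 4) in severe EAE. EAE mice exceeded naïve mice by 5.66 percentage points, which was within the spread between mice (two-sided exact permutation p = 0.575, adjusted p = 0.871 over 11 values). Severe EAE lay 21.2 percentage points below mild EAE, which also did not pass (exact permutation p = 0.0857, adjusted p = 0.236). With severe EAE mice 2 and 6 left out, the difference between EAE and naïve was 13.8 percentage points (exact permutation p = 0.0714).

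**Figure D1:**
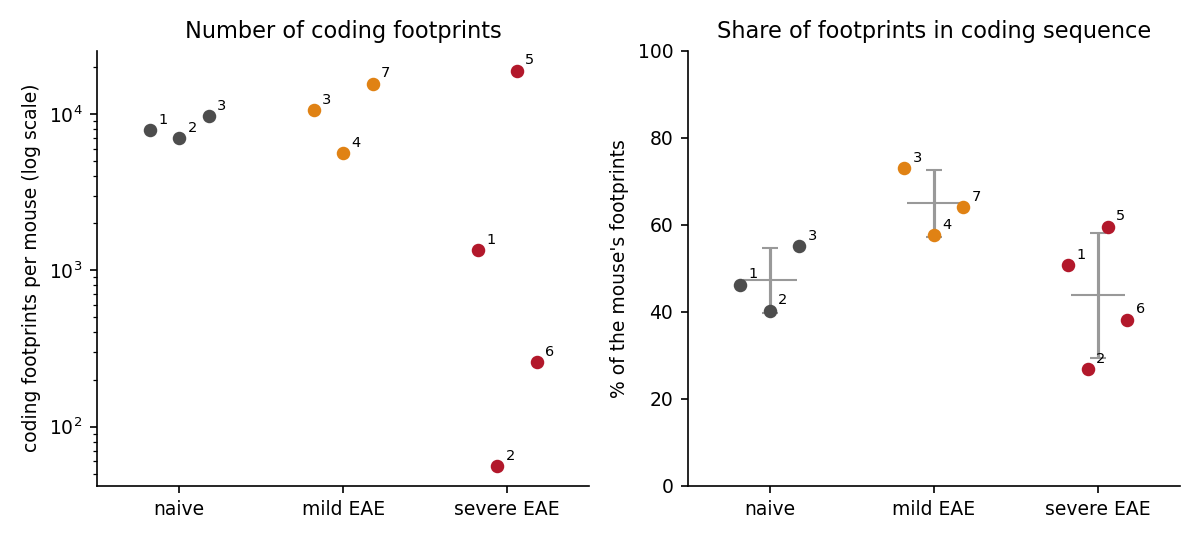
Coding footprints per mouse (left, log scale) and their share of all footprints of the mouse in percent (right), with 1 point per mouse, the mouse number beside it, and on the right a bar at the group mean with whiskers of 1 SD. The 3 mild EAE mice lie above the 3 naïve mice in share, and the 4 severe EAE mice range from 26.8% to 59.6%.

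Outside coding sequence, the intronic share was lower in EAE. Footprints with an intronic midpoint made up 34.4%, 37.5% and 25.3% of footprints in the naïve group, and from 9.96% to 25.8% in the 7 EAE mice, so that 1 EAE mouse overlapped the lowest naïve mouse. The difference between EAE and naïve was -13.9 percentage points (exact permutation p = 0.0167, chosen after the values were seen and not adjusted). Among footprints in exons of coding genes, 61.5% to 93.7% were coding, the rest lying in untranslated or noncoding exon sequence. Coding footprints were shorter than intronic ones in 10 of 10 mice. Their median length ranged from 80 to 93.5 nt per mouse, and was 54.4 nt below that of intronic footprints on average (SD 8.68, n = 10, exact sign-flip permutation p = 0.00195, the smallest this test can give). Spliced stretches were cut at exon ends in the processing, and stretches within an intron were not. The test thus compares cut with uncut lengths and does not measure the size of bound sites.

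Most coding footprints stopped at an exon end. At least 1 end lay exactly on an annotated exon end in 81.1%, 70.7% and 80.2% of coding footprints in the naïve group, in 86.1%, 79.5% and 83.4% in the mild group, and in 72.6%, 46.4%, 82.2% and 73.2% in the severe group. The groups overlapped, and neither EAE against naïve (-2.59 percentage points, exact permutation p = 0.833) nor severe against mild EAE (-14.4, exact permutation p = 0.143) passed. In internal coding exons, 49.1% ± 3.58 (SD, n = 10) of footprints began on the first base of the exon, 48.7% ± 5.96 ended on the last base, 14.5% ± 4.61 did both and so covered the exon from end to end, and 16.6% ± 5.22 did neither. The 3′ share minus the 5′ share was -0.42 percentage points (SD 4.10, n = 10; exact sign-flip permutation p = 0.82). It was above 0 in 7 of 10 mice, between 1.44 and 2.21 in the 6 naïve and mild EAE mice, and -1.56, -10.3, 1.53 and -4.62 in the severe group. Without severe EAE mouse 2 the mean was 0.68 (exact sign-flip permutation p = 0.391), and without severe EAE mice 2 and 6 it was 1.34 (exact sign-flip permutation p = 0.0391, chosen after the values were seen and not adjusted). In each of the 10 mice, 90.0% to 98.8% of the exons with a coding footprint held just 1.

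Joined exons were the rule at these ends. Of 37645 coding footprints that ended on the last base of an exon followed by another coding exon, 32427 were met by a footprint of the same mouse that started on the first base of that next exon. The share was 85.5%, 83.8% and 84.2% in the naïve group. It was 86.7%, 84.3% and 86.5% in the mild group. It was 82.4%, 84.6%, 88.2% and 73.3% in the severe group, where mouse 2 had 13 such ends and mouse 6 had 105. Where a footprint ended inside its exon instead, the next exon was started on its first base in 0% to 7.72% of cases per mouse. The difference was 79.8 percentage points (SD 2.49, n = 10, positive in 10 of 10 mice, exact sign-flip permutation p = 0.00195). However, the assembled stretches had been aligned in spliced mode, and each aligned block became a separate footprint. A block cut at an exon end is then met by a block at the next exon through the processing itself. This test therefore describes how stretches were cut and does not measure binding. The joined share did not separate the groups: it differed by -0.79 percentage points between EAE and naïve mice (exact permutation p = 0.825). The longest chain of exons joined in this way ran over 3 to 16 exons per mouse. In mild EAE mouse 3 it ran over 13 exons of Col16a1, a collagen, in mild EAE mouse 7 over 10 exons of Kif1b, an axonal transport motor, and in naïve mouse 1 over 9 exons of Dst.

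**Figure D2:**
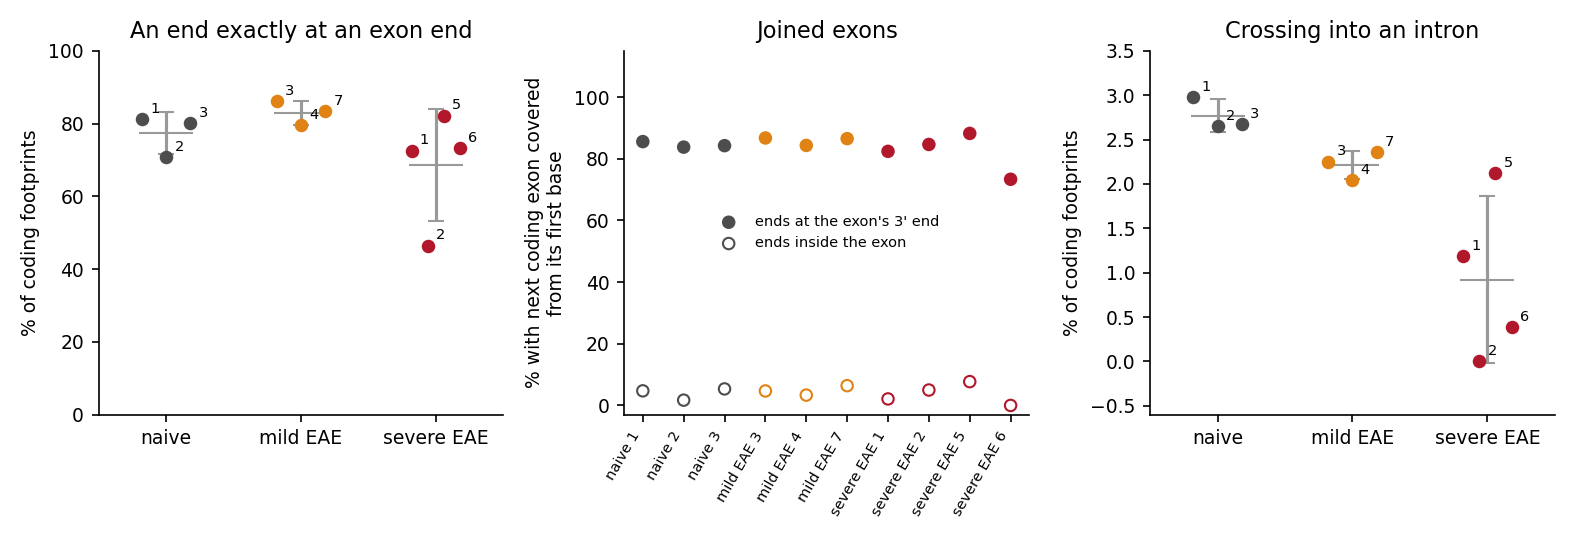
Per mouse, the percent of coding footprints with an end exactly on an annotated exon end (left), the percent for which the next coding exon was covered from its first base, after footprints ending at the exon's 3′ end (filled) or inside the exon (open) (middle), and the percent reaching at least 10 nt into an intron (right). Points are mice, and the left and right panels show the group mean and SD. The filled points lie at 73.3% or above and the open points at 7.72% or below, and on the right all 7 EAE mice lie below the 3 naïve mice.

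Few coding footprints crossed into an intron. At least 10 nt lay outside the annotated exons of the gene in 2.98%, 2.65% and 2.68% of coding footprints in the naïve group. Mild EAE mice followed with 2.25%, 2.04% and 2.36%, and severe EAE mice with 1.18%, 0%, 2.12% and 0.389%. All 7 EAE mice lay below the lowest naïve mouse, and the 2 lowest values came from severe EAE mice 2 and 6, which had few footprints. The mean difference was -1.29 percentage points (exact permutation p = 0.05, adjusted p = 0.55), which did not pass. Without severe EAE mice 2 and 6 it was -0.78 (exact permutation p = 0.0357, not adjusted). The share of footprints in introns as a whole moved the same way, and its part in this value was not tested.

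Along the coding sequence, footprints were spread nearly evenly and thinned out towards the stop codon. The mean position, with the start codon at 0 and the stop codon at 100% of the CDS, was 48.9%, 49.5% and 47.6% in the naïve group. It was 48.0%, 47.4% and 47.4% in the mild group, and 46.9%, 50.5%, 47.7% and 42.9% in the severe group. The mean over 10 mice was 2.32 percentage points below the 50% that even placement gives, with 1 mouse above it (exact sign-flip permutation p = 0.00586, adjusted p = 0.0156 over 8 values). The last 10% of the CDS held 7.16% ± 0.90 (SD, n = 10) of coding footprints where even placement gives 10%, and the first 10% held 9.62% ± 2.31. The shift was not larger than the spread when every coding exon, rather than every nucleotide, was taken as equally likely (-0.61 percentage points, exact sign-flip permutation p = 0.566). EAE and naïve mice differed by -1.42 percentage points (exact permutation p = 0.358), and severe and mild EAE by -0.54 (exact permutation p = 0.743). Start codons were covered by 1.54% to 7.14% of coding footprints per mouse, and the last sense codon by 1.12% to 3.57%.

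**Figure D3:**
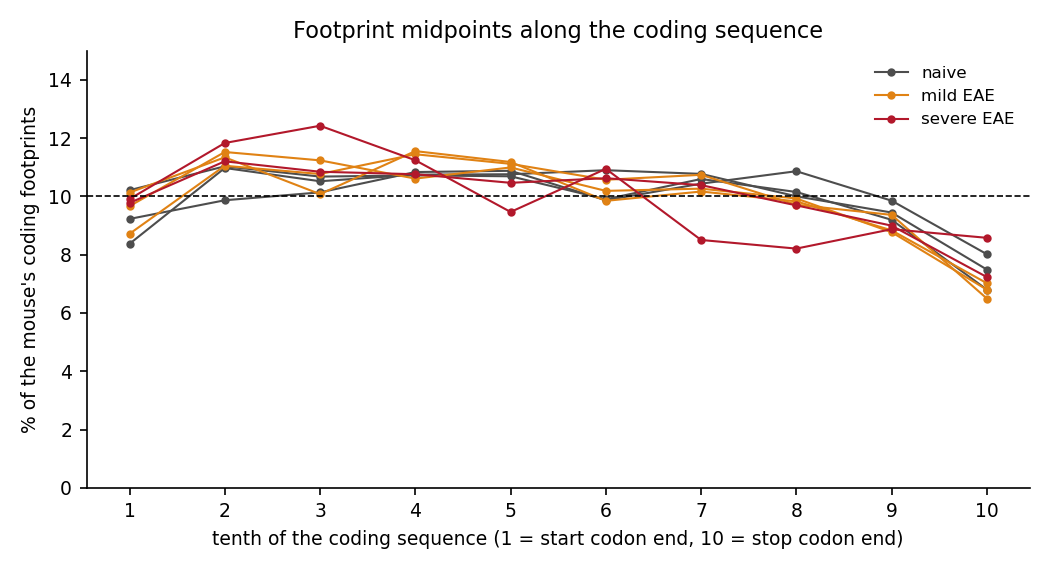
Percent of a mouse's coding footprints with their midpoint in each of 10 equal bins of the CDS, from the start codon end (1) to the stop codon end (10), with 1 line per mouse for the 8 mice with at least 1000 coding footprints. The dashed line marks the 10% of even placement, and all 8 lines lie below it in the last bin.

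By exon rank, footprints were divided much as the length of the exons was. The median coding exon rank was 8 over mice and ranged from 4 to 9. Exons 3 to 5 held 22.4% ± 3.74 (SD, n = 10) of coding footprints against 21.1% ± 3.86 by the length of those exons in the same transcripts, and exons beyond the fiftieth held 2.71% ± 0.68 against 2.69% ± 0.44. In transcripts with more than 1 coding exon, the first coding exon held 7.24% ± 2.94 of footprints against 7.73% ± 0.79 by length, a difference within the spread (-0.49 percentage points, exact sign-flip permutation p = 0.555). That value hung on severe EAE mouse 6, which stood 5.42 percentage points above its expectation; without it the difference was -1.15 (exact sign-flip permutation p = 0.0273). The last coding exon held 8.93% ± 7.70 against 11.4% ± 5.92, 2.45 percentage points less (exact sign-flip permutation p = 0.00781, adjusted p = 0.0156), and severe EAE mouse 2 alone lay above its expectation. Counted per exon instead of per nucleotide, the last exon showed no deficit (0.44 percentage points, exact sign-flip permutation p = 1).

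For exon length too, the direction depended on whether nucleotides or exons set the expectation. The geometric mean length of the exon under a coding footprint was 175, 214 and 188 nt in the naïve group, against 229, 255 and 239 nt for a random coding nucleotide of the same transcripts. It was 152, 183 and 175 nt in the mild group, against 206, 234 and 226 nt. In severe EAE mice 1, 2, 5 and 6 it was 222, 350, 186 and 199 nt, against 265, 359, 236 and 223 nt. The log2 ratio was negative in 10 of 10 mice, with a mean of -0.30 (exact sign-flip permutation p = 0.00195, adjusted p = 0.00781). Weighted by covered nucleotides, which undoes the count of 1 footprint per short exon, it was -0.10 (exact sign-flip permutation p = 0.0156), with each gene counted once it was -0.16 (exact sign-flip permutation p = 0.00977), and against a random coding exon in place of a random nucleotide it was 0.30 in the opposite direction (exact sign-flip permutation p = 0.00195). Exons of 51 to 100 nt held 22.1% ± 3.02 of footprints, against 16.0% ± 1.11 of coding nucleotides and 26.04% ± 1.87 of coding exons. Exons over 1000 nt held 12.1% ± 6.77 of footprints and 18.4% ± 8.10 of covered nucleotides, against 15.5% ± 5.69 of coding nucleotides and 7.97% ± 4.04 of coding exons. Neither EAE against naïve (0.05, exact permutation p = 0.617) nor severe against mild EAE (0.19, exact permutation p = 0.0571, adjusted p = 0.236) passed for the log2 ratio.

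**Figure D4:**
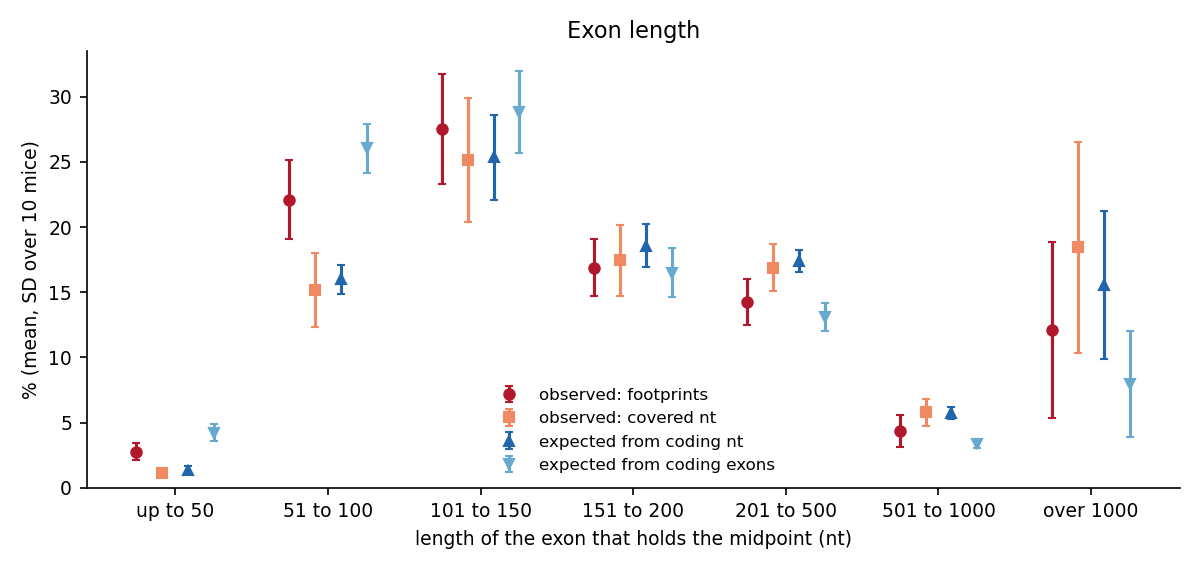
Percent of coding footprints and of covered coding nucleotides by the length of the exon under the midpoint, beside the percent expected from the coding nucleotides and from the coding exons of the same transcripts. Points are means over 10 mice and whiskers 1 SD. Footprints lie between both expectations in exons of 51 to 100 nt and in exons over 1000 nt.

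Ranked by count alone, without regard to exon length, single long exons gathered the most footprints. The largest exon of Ahnak, which encodes a giant scaffold protein, is 17498 nt long with its untranslated part (chr19:9001699-9019196) and held 104 footprints in 8 mice. In naïve mice 1, 2 and 3 it held 6, 15 and 14, in the mild group it held 13, 8 and 16, and in severe EAE mice 1 and 5 it held 6 and 26. The next were an exon of 6198 nt in Ank2 (chr3:126941610-126947807) with 67 footprints, one of 8104 nt in Map1a (chr2:121299269-121307372) with 65, one of 6569 nt in Srrm2 (chr17:23815122-23821690) with 60, and one of 7674 nt in Ank3 (chr10:69986089-69993762) with 53. Ank2 and Ank3 encode ankyrins, with giant exons used in axons, Map1a encodes a microtubule-associated protein, and Srrm2 a scaffold of nuclear speckles.

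Alternative coding sequence was covered slightly less than its length would give. A position counted as alternative when another protein-coding transcript of the gene spans it without coding for it. Such positions held 9.54%, 9.80% and 9.63% of coding footprints in the naïve group, against 10.8%, 10.4% and 10.6% by length. In mild EAE they held 8.70% to 9.56%, and in severe EAE 5.36% to 9.64%. The deficit was 1.11 percentage points over 10 mice, with 0 of 10 above expectation (exact sign-flip permutation p = 0.00195, adjusted p = 0.00781), and EAE minus naïve was -0.20, within the spread (exact permutation p = 0.408). With the longest CDS of each gene the value against expectation was -2.06, and with each gene counted once it was -0.55.

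Neither motif was enriched within coding footprints over the coding sequence of the same transcripts. UAG occurred at 4.89 ± 0.66 per 1000 possible positions within coding exons (SD, n = 10), against 4.95 ± 0.50 in the whole coding exons. The log2 ratio was -0.02 (exact sign-flip permutation p = 0.344), with 5 of 10 mice above 0. AGGU occurred at 3.25 ± 0.53 against 3.30 ± 0.60 (log2 ratio -0.02, exact sign-flip permutation p = 0.557), with 3 of 10 mice above 0. For UAG the log2 ratio differed by less than 0.001 between EAE and naïve mice (exact permutation p = 1), and for AGGU by 0.03 (exact permutation p = 0.542). A UAG lay in 24.9% to 36.0% of coding footprints per mouse. In transcripts with complete coding sequence, 0 of 36522 covered UAG triplets were in frame, as such sequence holds none. Of these triplets, 23623 began on the second base of a codon and 12899 on the third. Over all coding footprints, 63.6% ± 2.09 of UAG triplets per mouse began on the second base (SD, n = 10). In the whole coding sequences of the same transcripts it was 62.2% ± 1.77, and the difference was not tested. GC content within footprints was 54.4% ± 2.08 against 53.8% ± 0.94 (0.60 percentage points, exact sign-flip permutation p = 0.162).

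The 77137 coding footprints lay in 7432 of 21951 annotated protein-coding genes and in 37513 distinct exons. Per mouse, 2353 to 2831 genes had one in naïve mice, 1965 to 4165 in mild EAE mice, and 664, 32, 4743 and 158 in the severe group. All 3 naïve mice shared 978 genes and all 3 mild EAE mice 1192, with 607 in both sets, which is 62.1% of the naïve and 50.9% of the mild set. Of the 978 genes, 931 also had a coding footprint in severe EAE mouse 5.

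Among the genes with coding footprints in the most mice, those with the most covered nucleotides were giant genes of the cytoskeleton and the membrane. Lrp1 (chr10:127538161-127621148) and Ahnak2 (chr12:112772194-112802657), which encodes a scaffold protein, were the only 2 genes present in all 10 mice. In Lrp1, footprints covered 39.7%, 9.21% and 34.8% of the 13635 nt coding sequence in the naïve group, 40.2%, 26.6% and 44.4% in the mild group, and 14.1%, 0.799%, 59.7% and 4.22% in the severe group. The groups overlapped, and the order within the severe group followed the number of coding footprints of the library. They touched 42 to 49 of its 89 coding exons in naïve mice 1 and 3, 15 in naïve mouse 2, and 64 in severe EAE mouse 5. In Ahnak2 the covered share of 5216 nt ran from 10.3% in severe EAE mouse 6 to 71.6% in severe EAE mouse 5. That annotated length is not a whole number of codons, so these shares need not refer to a complete CDS.

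A further 31 genes were present in 9 mice. The 8 with the most covered coding nucleotides were Dst, Macf1, Dync1h1, Sptan1, Ahnak, Plec, Map1a and Sptbn1, with coding sequences of 7089 to 23151 nt. Those of the 23 others were 633 to 16764 nt long. Dst (chr1:33908225-34308661) had 84, 30 and 69 coding footprints in the naïve group, 63, 60 and 83 in the mild group, and 13, 0, 95 and 2 in the severe group. Macf1 (chr4:123349633-123684360), which crosslinks microtubules and actin, had 55, 43 and 90, then 34, 36 and 72, then 2, 0, 94 and 2 in the same order. Dync1h1 (chr12:110601452-110666945) encodes the heavy chain of the dynein motor and had 304 in all. Sptan1 (chr2:29965560-30031451) and Sptbn1 (chr11:30099395-30268175) encode the spectrins of the membrane skeleton, with 256 and 143. Ahnak (chr19:8989284-9076914), Plec (chr15:76170974-76232574), the gene of the filament linker plectin, and Map1a (chr2:121289600-121310832) had 108, 125 and 76. Of these 8 genes, footprints sat earliest in Plec, with a median position of 23.9% of the CDS, and latest in Sptbn1, at 59.6%.

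Coding footprints in genes of inflammatory cells were present in EAE mice and nearly absent in naïve mice. Of 12 microglial and myeloid genes, naïve mice 1, 2 and 3 had coding footprints in 0, 1 and 0, mild EAE mice 3, 4 and 7 in 8, 6 and 6, and severe EAE mice 1, 2, 5 and 6 in 2, 1, 9 and 2. The 7 EAE mice together had 91 footprints in these genes and the 3 naïve mice 1. Of 12 genes of lymphocytes and antigen presentation, naïve mice had 0, 0 and 0, mild EAE mice 6, 3 and 4, and severe EAE mice 1, 0, 4 and 1. Csf1r, the receptor for the growth factor of macrophages and microglia, had 7, 1 and 14 footprints in the mild group and 0, 0, 11 and 1 in the severe group, with 0 in every naïve mouse. C1qb, a chain of complement C1q, had 2, 0 and 4, then 0, 0, 2 and 2, with 1 in naïve mouse 2. H2-Aa, an MHC class II chain, had 3, 1 and 3, then 2, 0, 3 and 0. P2ry12, Itgam, Aif1, Cd3e, Cd4, Cd8a and Cd79a had none in any mouse. Ighm and Trbc2, constant-region genes of antigen receptors, also stood at 0. Membership required the protein-coding gene type, so their 0 cannot be read as absence. In the same list, Ptprc had 5 footprints, all in mild EAE mouse 3. Ccl5 had 2 in mild EAE mouse 3 and 2 in mild EAE mouse 4. The microglial and myeloid genes made up 0% to 0.0142% of coding footprints in naïve mice and 0.142% to 1.79% in EAE mice. The highest share was 1 of 56 coding footprints in severe EAE mouse 2, and the next, 1.17%, was 3 of 257 in severe EAE mouse 6. The other EAE mice lay between 0.142% and 0.217%. The part of these genes in the other differences between groups was not tested.

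Across all genes, 105 of 7432 (1.41%) had coding footprints in at least 4 EAE mice and in no naïve mouse. Among the 12 microglial and myeloid genes 5 did (among them C1qc, Csf1r, Ctss and Lyz2), among the 12 of lymphocytes and antigen presentation 3 did (Cd74, H2-Aa and H2-Ab1), and among 26 hnRNP and SR splicing factors 2 did (Hnrnpd and Srsf10); none did in the lists of neurons, oligodendrocytes, astrocytes, endothelium, axonal cytoskeleton, myelin or synaptic vesicle release. The most covered of the 105 were Abca1 (chr4:53030787-53159895), a cholesterol exporter, Csf1r (chromosome 18), Mpeg1 (chr19:12460779-12465283), a pore-forming protein of macrophages, Pdia3 (chr2:121413775-121438687), a disulfide isomerase that assists MHC class I folding, and Serpina3n (chr12:104406729-104414329), a protease inhibitor of reactive astrocytes. Abca1 had 12, 6 and 19 footprints in the mild group and 12 in severe EAE mouse 5. Mpeg1 had 2, 0 and 3 in mild EAE, and 3 and 1 in severe EAE mice 5 and 6. Pdia3 had 5, 0 and 10 in mild EAE, and 1, 8 and 3 in severe EAE mice 1, 5 and 6. Serpina3n had 3, 1 and 3 in mild EAE, and 2 and 4 in severe EAE mice 1 and 5. All 5 were at 0 in the naïve mice.

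In the other direction, 12 of 7432 genes (0.161%) had coding footprints in all 3 naïve mice and in no EAE mouse, and none of the lists had a member among them. The most covered were Cpne9 (chr6:113282307-113305627), of the copine family of calcium-dependent membrane binding proteins, with 5, 4 and 5 footprints in the naïve group, Apod (chr16:31296192-31314808), the lipid carrier apolipoprotein D, with 2, 1 and 4, Zmym4 (chr4:126861939-126968135), a zinc finger protein, with 2, 2 and 2, Mapk11 (chr15:89142486-89149628), a p38 kinase, with 2, 1 and 4, and Zmat2 (chromosome 18), a spliceosome component, with 2, 2 and 2. With 3 naïve against 7 EAE mice the counts of both rules are not on the same footing, so they are not compared.

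Genes of the resident cells of the spinal cord, the labelled tissue, had coding footprints in all groups. Of 12 neuronal genes, 11, 6 and 9 had one in the naïve group, 9, 6 and 8 in the mild group, and 3, 0, 10 and 0 in the severe group. Map2, a dendritic microtubule-associated protein, had 10, 4 and 10, then 8, 9 and 14, then 1, 0, 17 and 0 footprints. Snap25, of the synaptic fusion machinery, and the tubulin Tubb3 each had 16 in 7 mice. Of 12 oligodendrocyte genes, 3 to 8 had one in naïve mice, 5 to 9 in mild EAE and 0 to 9 in severe EAE; Mag, Cnp and Cldn11, all of the myelin sheath, had 30, 14 and 10 footprints in 7, 7 and 6 mice. Of 10 astrocyte genes, 2 to 5 had one in naïve mice, 4 to 7 in mild EAE and 3, 0, 8 and 0 in severe EAE. There were 30 footprints in Slc1a2, a glutamate transporter, 9 in the gap junction gene Gja1 and 22 in Aldoc, a glycolytic enzyme. Gfap had 5, all in naïve mouse 3, and Slc1a3 had none. Of 6 endothelial genes, 1, 6 and 4 had one in naïve mice, 1, 1 and 4 in mild EAE and 1, 0, 4 and 0 in severe EAE. Flt1, a VEGF receptor, had 1, 15 and 13 footprints in naïve mice, 0, 0 and 9 in mild EAE and 0, 0, 7 and 0 in severe EAE. Vwf, the clotting factor, had 0, 5 and 0 in naïve mice, 4, 4 and 11 in mild EAE and 4, 0, 2 and 0 in severe EAE.

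Of 26 genes of the axonal cytoskeleton, 22, 20 and 24 had coding footprints in the naïve group, 23, 19 and 23 in mild EAE, and 13, 1, 22 and 5 in the severe group. As a share of all coding footprints of a mouse they made up 3.74% ± 0.68 (SD, n = 3) in naïve, 3.42% ± 0.92 (n = 3) in mild EAE and 3.67% ± 1.70 (n = 4) in severe EAE, with overlapping ranges. Genes of synaptic vesicle release made up 0.65% ± 0.31, 0.57% ± 0.11 and 0.16% ± 0.24. Severe EAE mice 2 and 6, with only 56 and 257 coding footprints, had none of the 16. Severe EAE mouse 5 had 0.506%, within the naïve range of 0.328% to 0.935%, and severe EAE mouse 1 had 0.148%, below it. Of 26 hnRNP and SR splicing factors, 14, 10 and 16 had coding footprints in naïve mice, 16, 13 and 18 in mild EAE and 5, 0, 21 and 2 in severe EAE. The gene of hnRNP A1 itself had 2, 0 and 3 footprints in its coding sequence in naïve mice, 4, 4 and 4 in mild EAE and 1, 0, 4 and 0 in severe EAE. Beside these counts stands the total of each library: 0.146% of all protein-coding genes had a coding footprint in severe EAE mouse 2 and 21.6% in severe EAE mouse 5.

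**Figure D5:**
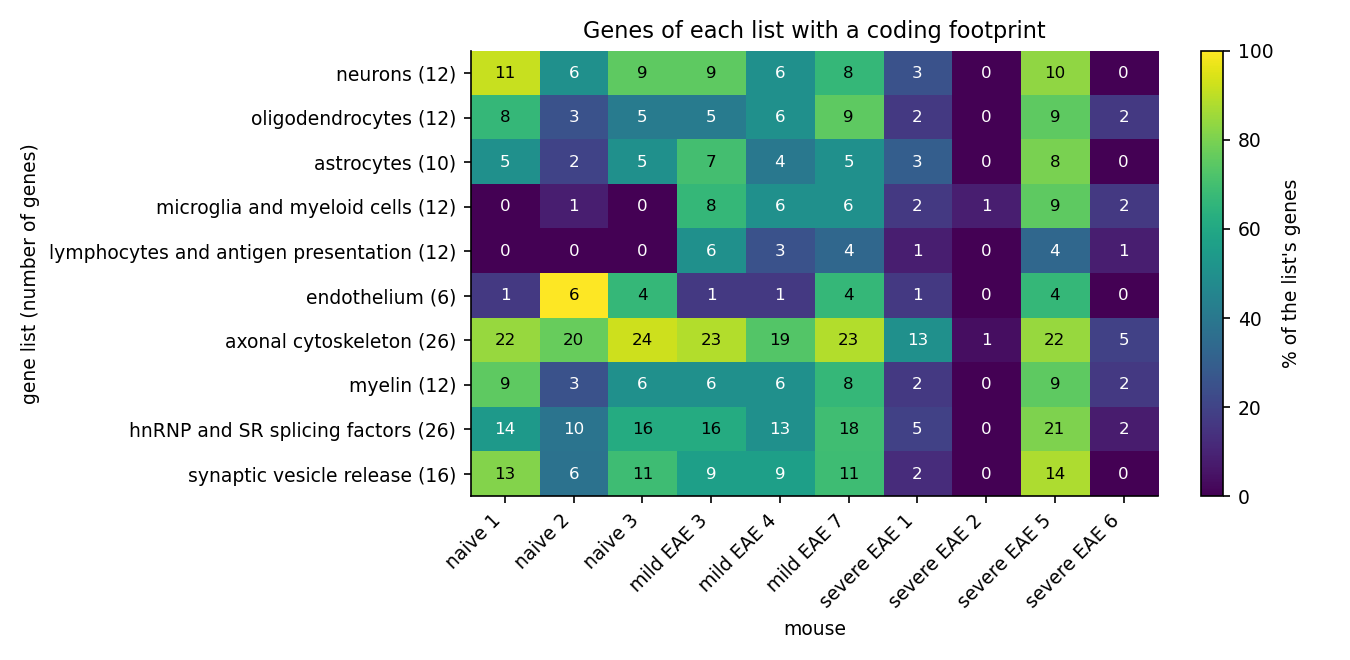
Number of genes of each list (rows, list size in brackets) with at least 1 coding footprint in each mouse (columns), coloured by the percent of the list. The rows of microglial and myeloid genes and of lymphocytes and antigen presentation hold 0 or 1 in the 3 naïve mice and up to 9 in the EAE mice, while the other rows hold counts in all 3 groups.

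Merged over mice, coding footprints formed 40987 regions, of which 42.3% were found in at least 2 mice, against 31.8% of the 82297 regions formed by all footprints. Regions with 2 or more naïve mice and without any severe EAE mouse numbered 1729 among coding regions (4.22%), where all footprints gave 3.9%. The opposite, at least 2 severe EAE mice and no naïve mouse, held for 408 coding regions (0.995%), against 0.814% of all. Both counts depended on severe EAE mouse 5: without it they were 4279 (12.5%) and 16 (0.0468%) of 34216 coding regions, against 10.3% and 0.0672% of all. At least 2 naïve and no mild EAE mouse held for 1260 coding regions (3.07%), where all footprints gave 3.08%. At least 2 mild EAE and no naïve mouse held for 2619 (6.39%), against 4.16% of all.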

How the data were processed

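hnRNP A1 CLIPseq of 10 spinal cords was analysed, from 3 naïve, 3 mild EAE and 4 severe EAE mice, grouped by the clinical scores in the labels. The deposited lists give the chromosome, start and end of each footprint on GRCm38, other values (read count, strand or score) not being part of them. By the methods and the submitters' processing notes, the authors demultiplexed with bcl2fastq 2.19.0.316, trimmed with fastp, assembled each library into contigs, aligned these in spliced mode with minimap2 2.17, subtracted sites of the inputs and the pooled control IgG libraries with bedtools, and merged touching sites. Spliced contigs thus become separate footprints, merging hides strand, and a site shared with the background is lost.

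A footprint was a member when its midpoint lay in a CDS interval of a protein-coding transcript of a protein-coding gene (GENCODE M21). It was placed on 1 transcript of the gene, by APPRIS principal rank, then the basic tag, then CDS length, and 98.4% fell on a principal transcript. Of the members, 645 lay in the CDS of more than 1 gene, 6473 within the span of more than 1 gene, 375 in an incomplete CDS and 3 on the Y chromosome, and 568 footprints of the series lay off the chromosomes. Expectations came from the whole CDS of the same transcripts, weighted by their footprints. Motifs were counted on the gene's strand, wholly inside 1 coding exon, per position where one could start.

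Group means of the values per mouse were tested by exact permutation, two-sided (3 against 7 mice, smallest p 0.00833; 3 against 4 mice, smallest p 0.0286) or by exact sign-flip tests over 10 mice (smallest p 0.00195), with a threshold of 0.05 and Benjamini-Hochberg adjustment over the 11 or 8 values of a contrast. Mice are separate animals. Depth per footprint is unknown. The calculations were tested on simulated data, with all 77137 footprints placed evenly (1 of 24 tests below the threshold) and with the first coding exon raised in EAE mice, which was recovered. The simulated footprints were not cut at exon ends as the real ones were. The simulation therefore checks the calculations and cannot show how the tests behave for footprints cut at exon ends.

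The members, gene lists and tests were chosen with earlier results of these data known. Genes named are the 10 with coding footprints in the most mice (ties by mean covered coding nt), the 5 most covered of all 3 naïve and no EAE mouse, the 5 most covered of at least 4 EAE and no naïve mouse, the 5 exons with most footprints, the 6 stretches of at least 30 nt shared by most mice, and at most 3 members per marker list with coding footprints in at least 5 mice (ties by footprints), beside list members the text counts and the gene with the longest chain of joined exons in 3 mice. Some items these rules select are not reported here. The tests of joined exons, of exon start against exon end, of footprint length and of the intronic share, and 4 alternatives (mice with at least 1000 coding footprints, CDS of at most 10000 nt, covered nucleotides in place of footprints, expectation per exon), were added after the data were seen. Python 3.11.15, NumPy 2.4.6, pandas 2.3.3 and matplotlib 3.10.9 were used.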

Additional observations from a re-analysis of the deposited data

Results flagged for a closer look

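Within the 4 severe EAE mice, 3 of the 25 quantities examined had 1 mouse far from the other 3, where chance gives about 1 in 20. Severe EAE mouse 5 had 18982 coding footprints, in 4743 genes, against at most 1352 footprints and 664 genes in the other 3 mice of its group. The paper already describes this animal as the outlier of the severe group. It reports that the animal had been in remission shortly before the end of the experiment. Severe EAE mouse 2 had 2.52 percentage points more footprints in last coding exons than their length gives, where the other 3 lay between -2.96 and -2.23 percentage points, and it rests on 56 coding footprints.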

How the results depend on the processing

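Numbers are percentage points unless a log2 ratio is named. With expectation per exon, the position against the annotation was -0.61 and no longer passed, the last exon value became 0.44, the log2 exon length ratio 0.30, and the position of severe against mild EAE 1.05. With mice of at least 1000 coding footprints, the first exon value against the annotation (-1.47) and the intron-crossing share of EAE against naïve (-0.78) passed, and for EAE against naïve the last exon value (-0.24), log2 exon length ratio (-0.024), exon-end share (3.40), log2 UAG ratio (0.014) and GC difference (-0.27) changed sign. With footprints wholly inside the CDS, the first exon value against the annotation passed (-2.33), and the position of severe against mild EAE (0.36), the log2 UAG ratio of EAE against naïve (0.022) and that against the annotation (0.0087) changed sign; the intron-crossing share is 0 there by construction. Counting each gene once gave 0.69 for the first exon against the annotation, -0.16 for the log2 exon length ratio and -0.55 for alternative exons, both still passing, and no coding share. With the longest CDS, alternative exons gave -2.06 against the annotation. The alternative exon value of severe against mild EAE was -0.10 with the longest CDS, -0.0072 with at least 30 nt and -0.15 with a single gene. The log2 UAG ratio of EAE against naïve, near 0 throughout, was 0.00051, 0.0012, 0.0016 and, with CDS of at most 10000 nt, 0.0050 in the corresponding settings, the last of which also gave an intron-crossing share of -1.35 that passed. The limit of 200 nt and covered nucleotides changed no side or direction. Why these values moved was not tested.

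Leaving out 1 mouse in turn gave the following ranges. For EAE against naïve the log2 UAG ratio ran from -0.051 to 0.036, the log2 AGGU ratio from -0.0066 to 0.076, the last exon value from -0.083 to 0.96, the exon-end share from -5.91 to 2.13 and the intron-crossing share from -1.44 to -1.04 (exact permutation p from 0.0476 to 0.111), passing without mild EAE mouse 3, mild EAE mouse 7 or severe EAE mouse 5. For severe against mild EAE the log2 AGGU ratio ran from -0.14 to 0.028 and the position from -1.70 to 0.82. Against the annotation the log2 AGGU ratio ran from -0.048 to 0.0067 and the first exon value from -1.15 to -0.27. Most of these extremes came without severe EAE mouse 2 or severe EAE mouse 6, those of the UAG ratio without naïve mouse 2 or naïve mouse 3.

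With a replicate block on mouse numbers 1, 2 and 3, the log2 AGGU ratio of EAE against naïve was -0.058 and the coding share 2.97. The intron-crossing share was -1.62 (exact sign-flip permutation p = 0.25, the smallest 3 pairs allow). No value crossed the threshold. The deviations of same-numbered mice over 11 values correlated at -0.61, 0.68 and 0.48. Those of differently numbered mice ran from -0.76 to 0.82, so this check cannot tell whether the numbers pair the animals.

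The main limits are the unknown depth per footprint, 2 mice with under 300 coding footprints, and the merging of footprints without strand.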
